A study of Mus musculus with 4 samples.

Results

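Il10-expressing T cells were taken from 2 droplet libraries of T cells sorted as TS1 Tg CD4 cells from mice with graft-versus-host disease (GVHD), the attack of transplanted T cells on the tissues of the recipient. Members were chosen by their measured UMIs, so what the rule used is no finding: a cell was a member when it held at least 1 UMI (unique molecular identifier, a tag that counts an RNA molecule once) of Il10, at least 1 UMI of Cd3e, Cd3d or Cd3g, and UMIs of at most 2 of the 5 genes Il13, Csf2, Ccl1, Il1r2 and Tnfsf11. By this rule 2664 of 34918 kept cells were members, 1248 of 19020 in replicate 1 and 1416 of 15898 in replicate 2. Another 76 cells had Il10 and Cd3 UMIs but were over the limit on the 5 genes. The comparison cells were the 32089 Cd3-detected cells without an Il10 UMI, 17699 in replicate 1 and 14390 in replicate 2.

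All cells of both classes came from the same 2 libraries, strain BALB/c RAG2-/- TS1 Tg, 4 weeks after transplantation, with no untreated, healthy or other control group. TS1 is a transgenic T cell receptor, and without RAG2 a T cell cannot rearrange a receptor of its own. Each library pooled cells of 5 sources (spleen, colon, skin, small intestinal epithelium and small intestinal lamina propria), and the source of a single cell was not analysed here, so a difference between the classes and a difference in their tissue make-up cannot be told apart. The labels do not tie the 2 replicates to different animals. The p-values therefore measure only how far the difference between the classes varied between the 2 libraries, which may be technical. The labels do not give the strain of the recipients.

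Interleukin-10, the product of Il10, is a cytokine that restrains inflammation: it signals through the receptor chains Il10ra and Il10rb, the kinases Jak1 and Tyk2 and the factor Stat3, whose targets include the feedback inhibitor Socs3. Among CD4 T cells it is made by Foxp3+ regulatory cells, by Foxp3- type 1 regulatory (Tr1) cells, often with Ifng, Lag3 and Eomes, and by effector cells under strong stimulation. Maf, Prdm1 (Blimp-1), Batf, Irf4 and Ahr are known regulators of its transcription, and Maf also acts on Il21.

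A barcode was kept with at least 1000 UMIs, 500 genes and at most 10% mitochondrial UMIs. Kept cells had medians of 2688 UMIs and 1203 genes in replicate 1 and of 3699 UMIs and 1485 genes in replicate 2. The 2 libraries shared 599 kept barcodes, 3.15% and 3.77% of their cells, against 44.5 expected at random, an excess whose cause was not tested. In 518 of these pairs the larger UMI total was over 5 times the smaller, with medians of 20198 and 1319 UMIs. They include 73 members of replicate 1 and 52 of replicate 2, and 13 barcodes were members in both. The Cd3 condition left out few cells, 18972 of 19020 and 15857 of 15898 passing it, so some comparison cells were not T cells: 134 and 104 of them carried at least 5% of their UMIs from a list of neutrophil, myeloid, B cell, basophil, erythroid or epithelial genes, against 2 and 7 members. Counts of genes called, by list too, are therefore also given without the shared barcodes and without these cells.

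Members were 6.58% of the Cd3-detected cells in replicate 1 (exact Clopper-Pearson 95% interval 6.23 to 6.94%) and 8.93% in replicate 2 (8.49 to 9.38%), a mean of 7.75% ± 1.66 (SD, n = 2). The intervals cover counting error only. The libraries lay closer together at equal depth: with every cell thinned to 1500 UMIs the shares were 4.04% and 4.74%, and at 1000 UMIs 3.27% and 3.49%. A cell without an Il10 UMI is thus a cell in which none was caught, not one shown to lack Il10. Without the shared barcodes the unthinned mean was 7.66%.

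Most members rested on a single molecule. In replicate 1, 803 members (64.3%) held 1 Il10 UMI, 445 held 2 or more, 128 held 5 or more and 35 held 10 or more, up to 32. In replicate 2, 765 (54.0%) held 1, 651 held 2 or more, 228 held 5 or more and 69 held 10 or more, up to 69. The 10% of members with the most Il10 held 39.8% and 41.9% of all Il10 UMIs of members, 2733 and 4032 UMIs in total. Il10 was thus unevenly spread among the cells that carried it.

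**Figure D1:**
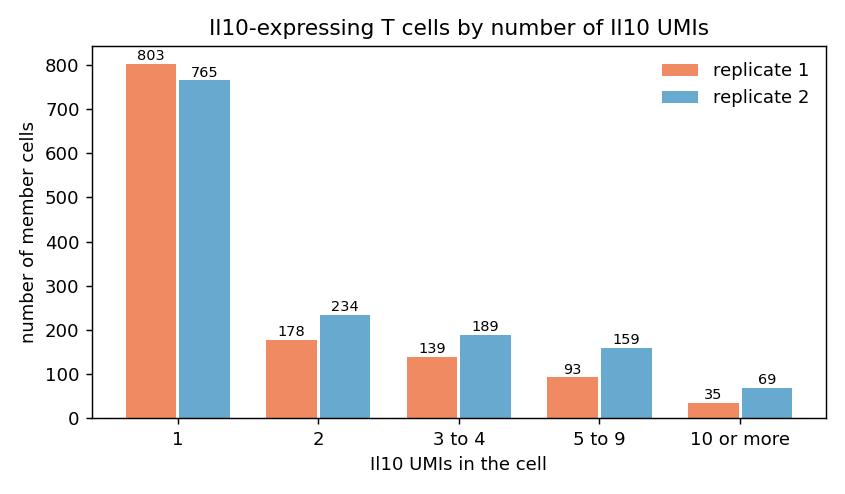
Number of Il10-expressing T cells (y axis) by the number of Il10 UMIs in the cell (x axis), with 1 bar per library. Cells with a single Il10 UMI are the most numerous class in both libraries, 803 and 765, and 35 and 69 cells hold 10 or more.

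Free RNA in the droplets also carried Il10. Barcodes under 100 UMIs, which hold no cell, had 115 Il10 UMIs of 2894605 in replicate 1 and 137 of 2583933 in replicate 2. A droplet of 1500 UMIs made of free RNA alone would hold an Il10 UMI in 5.79% and 7.65% of cases, above the 4.06% and 4.77% of Cd3-detected cells with one at that depth. Cells with at least 5% of UMIs from neutrophil genes were counted as well. In replicate 1, 1 of 74 of them had an Il10 UMI at 1500 UMIs (1.35%, exact interval 0.034 to 7.30%). Their median was 4032 UMIs before thinning, against 3126 in Cd3-detected cells. In replicate 2 it was 0 of 78 cells (medians 10540 and 3848 UMIs). This allows a share of up to 3.85% by 3 counts of the total and 4.62% by the exact interval. Before thinning, 1 of these 74 and 2 of these 78 cells held 2 or more Il10 UMIs. By a wider choice, cells with UMIs of 3 or more neutrophil genes had an Il10 UMI at 1500 UMIs in 3 of 111 cells (2.70%, 0.561 to 7.70%) and 13 of 316 (4.11%, 2.21 to 6.93%), and cells with 3 or more myeloid genes in 1 of 105 (0.952%, 0.024 to 5.19%) and 5 of 97 (5.15%, 1.69 to 11.6%). The intervals of the wider choice take in the share of T cells in both libraries, and that of the narrower choice does in replicate 1. Cd3e was found at 1500 UMIs in 51.4% and 26.9% of cells of the narrower choice. For the wider choice it was 55.9% and 74.1% (neutrophil genes) and 54.3% and 49.5% (myeloid genes). Many of these cells thus held T cell RNA, and their shares are no clean measure of background. Given the free RNA above, a member with 1 UMI still cannot be told apart from background by its count. The share of T cells with an Il10 UMI was also counted by the 4 other marker genes, which earlier results of these data chose for Il10 cells, so these values are a description that says nothing about background. At 1500 UMIs it was 1.02% in cells with none of Eomes, Maf, Rgs16 and Ccl4, 3.27% with 1 of these, 7.91% with 2, 13.2% with 3 and 22.7% with all 4 (means of 2 libraries), and both libraries had this order. In cells with an Itgae UMI it was 2.09% (1.66 to 2.59%) and 1.62% (1.24 to 2.07%), against 4.74% (4.36 to 5.15%) and 5.89% (5.45 to 6.35%) in cells without.

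The label was checked against T cell and regulatory genes. After thinning to 1500 UMIs, which left 1087 and 1385 members and 14148 and 13403 comparison cells and dropped 161 and 31 members, Trbc2 was found in 99.2% of members and 98.2% of comparison cells, Lck in 68.4% and 63.8%, and Cd4 in 21.9% ± 2.15 and 25.7% ± 1.26 (SD, n = 2). Cd8a, a gene of another T cell lineage that intestinal CD4 cells can acquire, was found in 20.2% ± 1.96 and 32.2% ± 1.72. Foxp3, which defines regulatory T cells, was near 0: 1.14 and 0.649 CPM (UMIs of a gene per 1000000 UMIs of the summed cells) in members and 0.107 and 0.183 CPM in comparison cells, with a UMI in 0.164% and 0.0434% of cells. Too few Foxp3 UMIs were present for a test.

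The 4 other marker genes were named for these cells from earlier results of the same data, so their values are a description without a test. All expression values below compare the sum of all members with the sum of 3 comparison cells per member, drawn from the same library in 20 bins of total UMIs so that both classes had the same depth (medians of 3117 and 3115 UMIs in replicate 1, 4512 and 4511 in replicate 2). Maf (chromosome 8, 115682942 to 115707794, minus strand; GENCODE annotation of mm10, as for all positions here) stood at 325 and 351 CPM in the members of replicates 1 and 2 and at 121 and 134 CPM in their comparison cells. Eomes, a T-box factor (chromosome 9, 118478212 to 118486132), stood at 93.1 and 91.0 CPM against 38.8 and 41.4. Ccl4, a chemokine that attracts effector T cells and macrophages (chromosome 11, 83662584 to 83664683), stood at 7410 and 7382 CPM against 2735 and 3288. Rgs16, which shortens signals of G protein-coupled receptors (chromosome 1, 153740349 to 153745468), stood at 145 and 156 CPM against 82.1 and 92.7. In all 4, both members' values lay above both comparison values. Il10 itself (chromosome 1, 131019845 to 131024974, plus strand) stood at 445 and 436 CPM in members and at 0 in comparison cells by the rule.

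The marker genes did not define the members cell by cell. Shares at 1500 UMIs, here and below, use all comparison cells of at least 1500 UMIs and not the depth-matched draw. At 1500 UMIs, Maf was found in 39.7% of members and 20.3% of comparison cells, Eomes in 14.6% and 6.82%, Rgs16 in 17.4% and 10.1%, and Ccl4 in 86.3% and 71.8%. At least 3 of the 4 were found in 14.6% ± 1.05 of members and 4.30% ± 0.719 of comparison cells, and none in 8.66% and 20.7%. Eomes and Maf were found together in 7.55% of members and 2.07% of comparison cells. Genes of these levels are often missed in a cell of 1500 UMIs, so absence of a UMI does not show absence of expression.

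Around the limits of the rule the values were as follows. Members with 2 of the 5 limit genes, 77 and 143 cells, had 350 and 355 CPM of Il10, 243 and 296 of Maf and 53.4 and 72.6 of Gata3, a type 2 helper factor. Cells with 3 of them, 18 and 35 cells just outside, had 491 and 508 CPM of Il10, 251 and 320 of Maf and 217 and 86.1 of Gata3. Cells with 1 Il10 UMI, just inside, had 251 and 261 CPM of Maf, and all undetected cells, at a lower depth, had 145 and 161.

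Across the transcriptome, 11811 genes were tested with edgeR's quasi-likelihood test, on 4 sums of UMIs with the library as a block, and a gene was called at a Benjamini-Hochberg adjusted p under 0.05 over all genes tested. Of these, 309 were higher in members (2.62% of genes tested) and 234 lower (1.98%), 4.6% in all, and 539 of the 543 had the same order of classes in both libraries. The 9 genes of the rule were not tested. Log2 differences below are members minus comparison cells with their standard error, and the median over all genes tested was -0.00059. The number called depended on the cells drawn and on the block, with 864 genes in a second draw, 1279 without the shared barcodes, 1114 without cells rich in genes of other cell types and 59 without the library as a block.

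Among cytokines, Il21, which drives B cell help and also Il10 through Stat3, was the gene with the largest rise among those named. It stood at 30.4 and 31.4 CPM in members and at 9.81 and 8.16 CPM in comparison cells, a log2 difference of 1.85 ± 0.12 (SE; edgeR adjusted p = 0.00379). The members of both libraries lay above both comparison values, at a low level: at 1500 UMIs 3.81% of members and 1.00% of comparison cells had an Il21 UMI. Ifng, the type 1 effector cytokine, stood at 846 and 1066 CPM against 613 and 763, a difference of 0.52 ± 0.03 (edgeR adjusted p = 0.00359), and was found in 57.7% of members and 45.6% of comparison cells. Il21 and Ifng were found together in 2.91% of members and 0.604% of comparison cells. Il2, the T cell growth factor, was lower, at 4.56 and 5.52 CPM against 12.9 and 37.6 (-2.24 ± 0.28, edgeR adjusted p = 0.0166). Lymphotoxin alpha, Lta, was also lower, at 29.8 and 18.7 CPM against 70.4 and 50.2 (-1.28 ± 0.07, edgeR adjusted p = 0.0028), and so was Spp1 (-0.54 ± 0.06). The comparison cells were free of the limit on the 5 genes, and 5.85% and 5.98% of all undetected cells held UMIs of 3 or more of them. With the same limit in both classes the difference was -0.90 for Il2 and -0.52 for Lta, both still called, and 2.35 for Il21. Tnf did not pass, at 129 and 132 CPM against 124 and 129 (0.10 ± 0.06, edgeR adjusted p = 0.483). Of 11 cytokine genes tested, 2 rose and 3 fell.

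Il21 lies at chromosome 3, 37222759 to 37232636, on the minus strand. Its upstream sequence is shown because Il21 rose most and Maf, the factor that marks these cells, is known to bind a half-site with the letters TGCTGA. The 250 bases before its start in RefSeq (GRCm38.p6, chr3:37232637-37232886, minus strand, 5′ to 3′) hold 1 match, in capitals, searched on both strands.

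Il21: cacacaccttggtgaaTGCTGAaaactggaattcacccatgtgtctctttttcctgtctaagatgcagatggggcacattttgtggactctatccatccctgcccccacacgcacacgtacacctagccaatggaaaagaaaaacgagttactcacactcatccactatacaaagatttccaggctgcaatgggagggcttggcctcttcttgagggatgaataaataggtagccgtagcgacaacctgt

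The same letters are in 5282 of the 32851 RefSeq promoter windows of that length (16.1%), so a match is common. The 48 named genes that rose, of which 36 are in the table with 52 windows, hold it in 6 windows (11.5%). They hold the AP-1 letters TGANTCA in 2 windows (3.85%, against 6.75% of all) and the T-box letters GGTGTGA in 1 window (1.92%, against 3.33%). In these 52 windows, none of the 3 letter patterns was more frequent than in all windows. The windows of the other genes that rose were not counted, so this says nothing about them.

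Of 19 known regulators of Il10 transcription, 9 were higher in members, 1 was lower and 9 were not called. The count includes Maf and Eomes, which earlier results of these data chose, so for them it is no independent evidence. Besides Maf and Eomes, these were Irf4 (16.3 and 22.1 CPM against 8.27 and 9.84; 1.13 ± 0.12, edgeR adjusted p = 0.0106), Prdm1 (58.8 and 62.2 CPM against 31.3 and 37.8; 0.86 ± 0.07, edgeR adjusted p = 0.00497), Batf (247 and 210 CPM against 141 and 131; 0.79 ± 0.06), and Egr2, Nfil3, Junb and Ets1 (0.62, 0.58, 0.24 and 0.21). Irf4 and Batf act together downstream of the T cell receptor, and Blimp-1 is an effector regulator. Ahr, a receptor for dietary and bacterial metabolites, was the one that fell, from 27.7 and 31.3 CPM in comparison cells to 16.6 and 17.1 in members (-0.76 ± 0.09, edgeR adjusted p = 0.0125). Gata3 (-0.26 ± 0.06, edgeR adjusted p = 0.0941), Tbx21, the T-bet gene (-0.21 ± 0.06, edgeR adjusted p = 0.153), and Bhlhe40, a repressor of Il10 (-0.07 ± 0.06, edgeR adjusted p = 0.577), did not pass. The median of the list was 0.24.

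**Figure D2:**
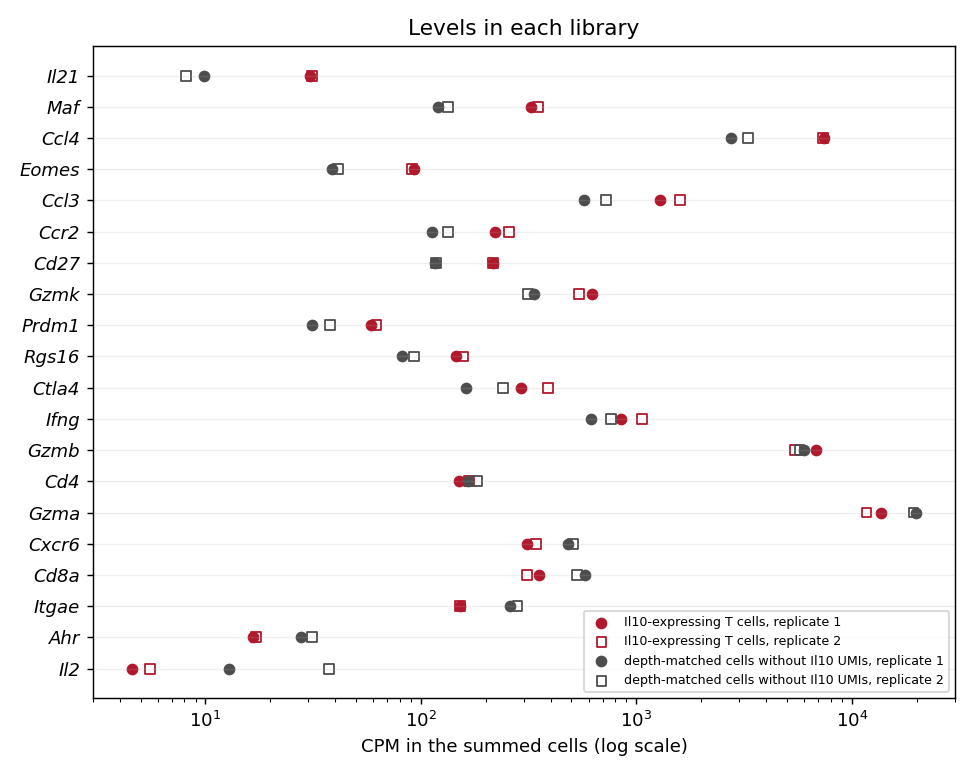
CPM of 20 genes (x axis, log scale) in the sum of Il10-expressing T cells (red) and of depth-matched cells without Il10 UMIs (grey), with filled circles for replicate 1 and open squares for replicate 2. The upper genes, such as Maf at 325 and 351 CPM against 121 and 134, lie to the right in members, Gzmb and Cd4 overlap, and the genes from Gzma down lie to the left.

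Genes of the receptor side were higher too. Of 7 genes of the Il10 receptor and its signalling, 4 rose and none fell. Il10ra, the ligand-binding chain, stood at 34.0 and 36.7 CPM against 22.7 and 22.0 (0.72 ± 0.08, edgeR adjusted p = 0.0102). Socs3 stood at 97.0 and 86.9 CPM against 40.9 and 47.2 (1.11 ± 0.10, edgeR adjusted p = 0.00653), and Bcl3, an I-kappa-B family member, rose by 0.62 ± 0.06. Il10rb rose by 0.29 and lost the call without the shared barcodes (0.24, edgeR adjusted p = 0.053), among other settings. Jak1, Tyk2 and Stat3 had differences of 0.19, 0.16 and 0.23 and did not pass. Among 12 receptors for cytokines that induce Il10, Il21r (0.40) and Ifnar1 (0.32) rose, and Il2ra and Il12rb2 fell. Il27ra, the receptor chain for interleukin-27, stood at 121 and 116 CPM against 108 and 115 and did not pass (0.14 ± 0.07, edgeR adjusted p = 0.367). The call of Il2ra, from 22.1 and 21.9 CPM to 12.9 and 11.3 (-0.83 ± 0.11), was lost with the same limit in both classes (-0.40, edgeR adjusted p = 0.118).

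Of 13 surface markers used for Tr1 cells, 6 rose and 1 fell. Ctla4, an inhibitory receptor for B7 ligands, stood at 292 and 388 CPM in members and 161 and 241 in comparison cells (0.82 ± 0.06, edgeR adjusted p = 0.00494). Both members' values lay above both comparison values, and replicate 2 was the higher library in both classes. Tigit, another inhibitory receptor, was low at 9.60 and 8.33 CPM against 2.72 and 3.84 (1.49 ± 0.25, edgeR adjusted p = 0.0359), and was not called when cells were thinned before they were classed (0.87, edgeR adjusted p = 0.334). The ectonucleotidase gene Entpd1 (0.70 ± 0.07), Havcr2, which encodes Tim-3 (0.51 ± 0.05), and Tnfrsf4, which encodes OX40 (0.50 ± 0.07), also rose, and Cd226, a stimulatory competitor of Tigit, fell (-0.57 ± 0.06). Lag3 stood at 219 and 212 CPM against 170 and 185 and did not pass (0.33 ± 0.07, edgeR adjusted p = 0.0568). Itga2, which encodes CD49b, was found in 1.05% of members and 1.19% of comparison cells at 1500 UMIs and did not pass (0.03 ± 0.17, edgeR adjusted p = 0.972), and Pdcd1 (0.12 ± 0.06) and Icos (0.05 ± 0.08) did not pass either. The inhibitory receptors did not move as one group: of 13 tested, 5 rose, among them Klrg1 (1.24 ± 0.07) and Cd5 (0.29), and Cd200, Cd244, Cd200r1 and Cd160 fell, by 0.87, 0.64, 0.49 and 0.47 on the log2 scale.

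Chemokine genes were among the most abundant that rose. Ccl3, an inflammatory chemokine like Ccl4, stood at 1288 and 1590 CPM in members and at 574 and 726 in comparison cells (1.20 ± 0.03, edgeR adjusted p = 0.000575). Ccl5, a further inflammatory chemokine, stood at 34745 and 34864 CPM against 24167 and 28088 (0.47 ± 0.05, edgeR adjusted p = 0.00887). Ccl3 and Ccl4 were found together in 52.0% of members and 32.8% of comparison cells at 1500 UMIs. Of 13 receptor genes for chemokines and tissue exit, 3 rose, Ccr2 (220 and 256 CPM against 112 and 133; 1.01 ± 0.06, edgeR adjusted p = 0.00297) and Cxcr4 (0.37) among them. Cxcr6, a receptor linked to tissue retention, fell from 482 and 510 CPM to 309 and 341 (-0.56 ± 0.04, edgeR adjusted p = 0.00497). Cxcr4 lost its call without proliferating cells (0.06, edgeR adjusted p = 0.88).

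Granule genes parted. Gzmk stood at 622 and 541 CPM in members and 335 and 314 in comparison cells (0.89 ± 0.05, edgeR adjusted p = 0.0028), and Prf1 (perforin, 0.56 ± 0.06), Fasl (0.35), Nkg7 (0.32) and Srgn (0.28) also rose. Gzma fell, from 19907 and 19326 CPM to 13593 and 11698 (-0.59 ± 0.04, edgeR adjusted p = 0.00388), as did Ctsw (-0.53 ± 0.05). Gzmb, the main cytotoxic granzyme, had 6822 and 5473 CPM against 6000 and 5715, with values that overlapped (0.11 ± 0.06, edgeR adjusted p = 0.356). The share of cells with a Gzmb UMI was nevertheless 88.2% ± 2.04 in members and 75.8% ± 0.0324 in comparison cells, and Gzma and Gzmb were found together in 70.8% and 68.1%. In all, 5 of 14 granule genes rose and 2 fell.

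**Figure D3:**
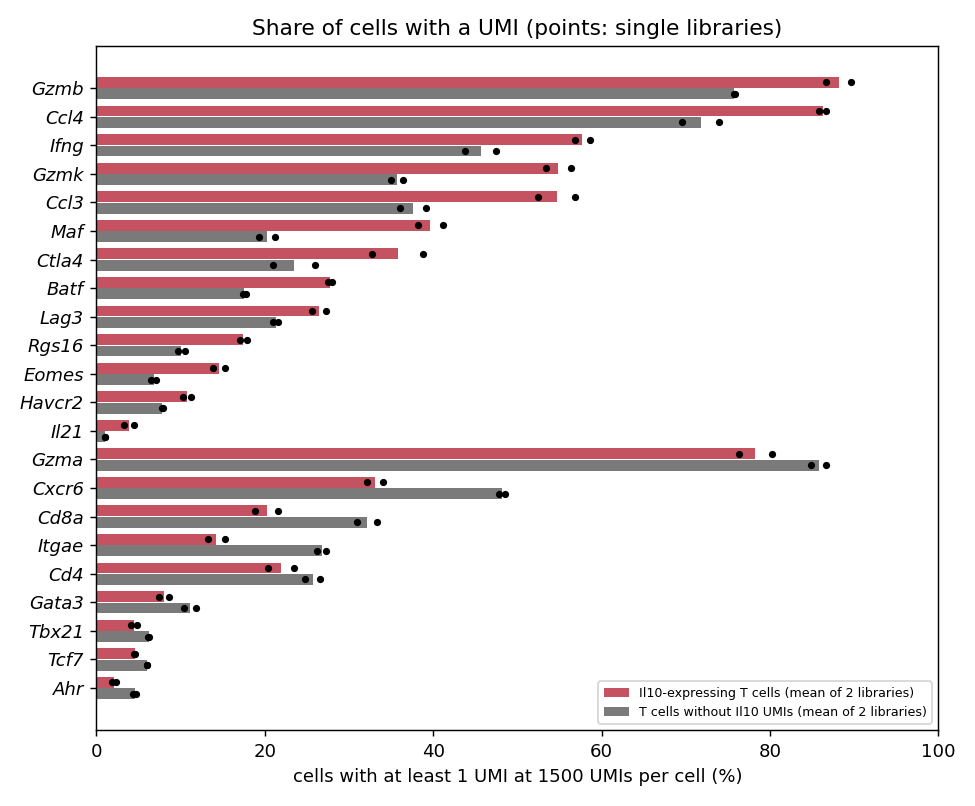
Share of cells with at least 1 UMI of each gene (x axis, percent) after thinning every cell to 1500 UMIs, in Il10-expressing T cells (red) and T cells without Il10 UMIs (grey); bars are means of 2 libraries and points the single libraries. Maf is found in 39.7% against 20.3% of cells, and Itgae in 14.2% against 26.7%.

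Killer lectin-like receptors, the natural killer family of surface receptors, were called lower in 5 of 7 tested and higher in 1. Those that fell were Klrc1, from 130 and 113 CPM to 51.6 and 54.5 (-1.14 ± 0.08, edgeR adjusted p = 0.00494), Klrc2 from 88.9 and 82.3 to 40.2 and 39.8 (-1.04 ± 0.06), Klre1 (-1.19), Klrd1 (-0.70) and Klrk1 (-0.61). Klrg1, a receptor of antigen-experienced effector cells, rose from 16.6 and 17.8 CPM to 38.6 and 40.3 (edgeR adjusted p = 0.00319). Klrc1 and Klrc2 are near copies of each other, so reads may have been split between them.

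Of 13 genes linked to tissue residency, 5 were lower, 1 was higher and 7 were not called. Itgae, the integrin chain CD103 that binds E-cadherin (chromosome 11, 73090583 to 73147446), stood at 152 and 152 CPM in members and at 259 and 281 in comparison cells (-0.78 ± 0.06, edgeR adjusted p = 0.00497). Itga1 (CD49a, -0.79 ± 0.08), Gpr55 (-0.81 ± 0.08), Cxcr6 and Ahr also fell, while Itga4, an integrin of entry into tissue, rose (0.50 ± 0.07). Cd69, and Ccr9 (0.14), a receptor for the small intestine, did not pass. Cd8a fell alongside, from 575 and 533 CPM to 355 and 312 (-0.68 ± 0.04, edgeR adjusted p = 0.00379), and Itgae and Cd8a were found together in 7.68% of members and 16.0% of comparison cells. Cd4 had 150 and 167 CPM against 165 and 183 and did not pass (-0.09 ± 0.06, edgeR adjusted p = 0.498). When cells were thinned before they were classed, 612 and 698 members were compared with all 14544 and 14020 undetected cells. In this different set of cells the falls were larger, -1.37 for Itgae, -1.37 for Cd8a, -1.54 for Itga1, -1.59 for Gpr55 and -1.15 for Gzma.

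Genes that follow T cell receptor signals were higher as far as they were called. Of 18, 9 rose and none fell. Irf8 stood at 73.9 and 67.2 CPM against 33.7 and 34.1 (1.10 ± 0.06, edgeR adjusted p = 0.00297). Nfkbid, an I-kappa-B family gene (76.5 and 83.9 CPM against 43.1 and 49.7; 0.84 ± 0.05), Myc (39.5 and 26.5 CPM against 23.0 and 17.5; 0.74 ± 0.08), and the phosphatases Dusp5 (0.68) and Dusp2 (0.54) were also higher, while Cd69, Fos, Egr1 and Tnfrsf9 did not pass. Nr4a1 and Nr4a2, early nuclear receptors of the same response, rose by 0.66 ± 0.06 and 0.60 ± 0.07. Of the transcription factors of exhaustion and memory, Klf3 (0.89 ± 0.06) and Tox2 (0.33) rose as well, Tox did not pass (0.30 ± 0.07, edgeR adjusted p = 0.0926) and Id3, a factor of memory precursors, fell (-1.52 ± 0.24, edgeR adjusted p = 0.03), so 4 of 16 rose and 1 fell.

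Among progenitor genes the picture was mixed. Tcf7, the central factor of stem-like T cells, stood at 25.4 and 22.9 CPM against 36.5 and 33.4 (-0.48 ± 0.07, edgeR adjusted p = 0.023), a call lost when cells were thinned first (-0.29, edgeR adjusted p = 0.445). Il7r and Id3 fell too, and Satb1 (0.58 ± 0.06) and Lef1 (0.45 ± 0.05) rose, 3 and 2 of 13. The co-stimulatory receptor gene Cd27 stood at 216 and 215 CPM against 117 and 118 (0.93 ± 0.06, edgeR adjusted p = 0.00379), and Fam46c (1.06 ± 0.08), Lax1 (0.93 ± 0.06), Chst2 (0.93 ± 0.06) and Gm14005 (1.00 ± 0.08) were further large rises. Of 7 regulatory T cell genes tested, Ctla4 and Izumo1r (folate receptor 4, 0.66 ± 0.07) rose and Il2ra fell.

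In several other lists few genes were called. Of 12 interferon-stimulated genes tested, 0 passed by edgeR and 0 by DESeq2, with a median of 0.07. An unadjusted edgeR p under 0.05 was found for 5 of these 12 and for 2281 of all 11811 genes tested. Without the shared barcodes 1 of the 12 interferon-stimulated genes was higher and 1 lower. Without cells rich in genes of other cell types 0 were higher and 2 lower. Over all genes tested, 1279 of 11193 were called without the shared barcodes and 1114 of 11704 without the rich cells. Among 9 TGF-beta pathway genes Smad7 (0.37) and Tgif1 (0.43) rose, among 14 glycolysis and hypoxia genes Hif1a (0.50 ± 0.06), among 13 ribosomal protein genes Rplp0 (0.13) and among 16 proliferation genes Mcm6 (0.32), and none fell. Of 12 cholesterol synthesis genes Hmgcs1 fell (-0.47 ± 0.07), with a list median of -0.26. These counts moved as well: without the shared barcodes 1 proliferation gene was higher and 4 lower, 2 glycolysis genes higher and 3 lower, 5 ribosomal protein genes higher and none lower, and 2 cholesterol genes lower. Without cells rich in genes of other cell types 1 proliferation gene was higher and none lower, 4 glycolysis genes higher and 1 lower, 2 ribosomal protein genes higher and 4 cholesterol genes lower. The counts of TGF-beta genes were the same in both. In the main comparison, an unadjusted edgeR p under 0.05 was found for 3 of 9 TGF-beta and 10 of 14 glycolysis and hypoxia genes. It was found for 7 of 13 ribosomal protein, 4 of 16 proliferation, 8 of 12 cholesterol and 8 of 12 heat shock genes. Cells with at least 2 of the 16 proliferation genes were 50.3% and 55.1% of members and 42.5% and 45.5% of undetected cells before depth matching. Heat shock genes Hspa1a (-0.86 ± 0.06) and Hspa1b (-0.83 ± 0.06), near-identical copies whose reads may be shared, fell with the stress factor Atf3 (-1.28 ± 0.14), and Hspa8 rose by 0.17, 1 up and 3 down of 12. With the same limit in both classes Hspa1a differed by -0.52 and Atf3 by -0.80, and Atf3 lost its call without high doublet scores (edgeR adjusted p = 0.061). Mapkapk2, next to Il10 on chromosome 1, was the 1 of 6 tested genomic neighbours that rose (0.45 ± 0.08, edgeR adjusted p = 0.0396).

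**Figure D4:**
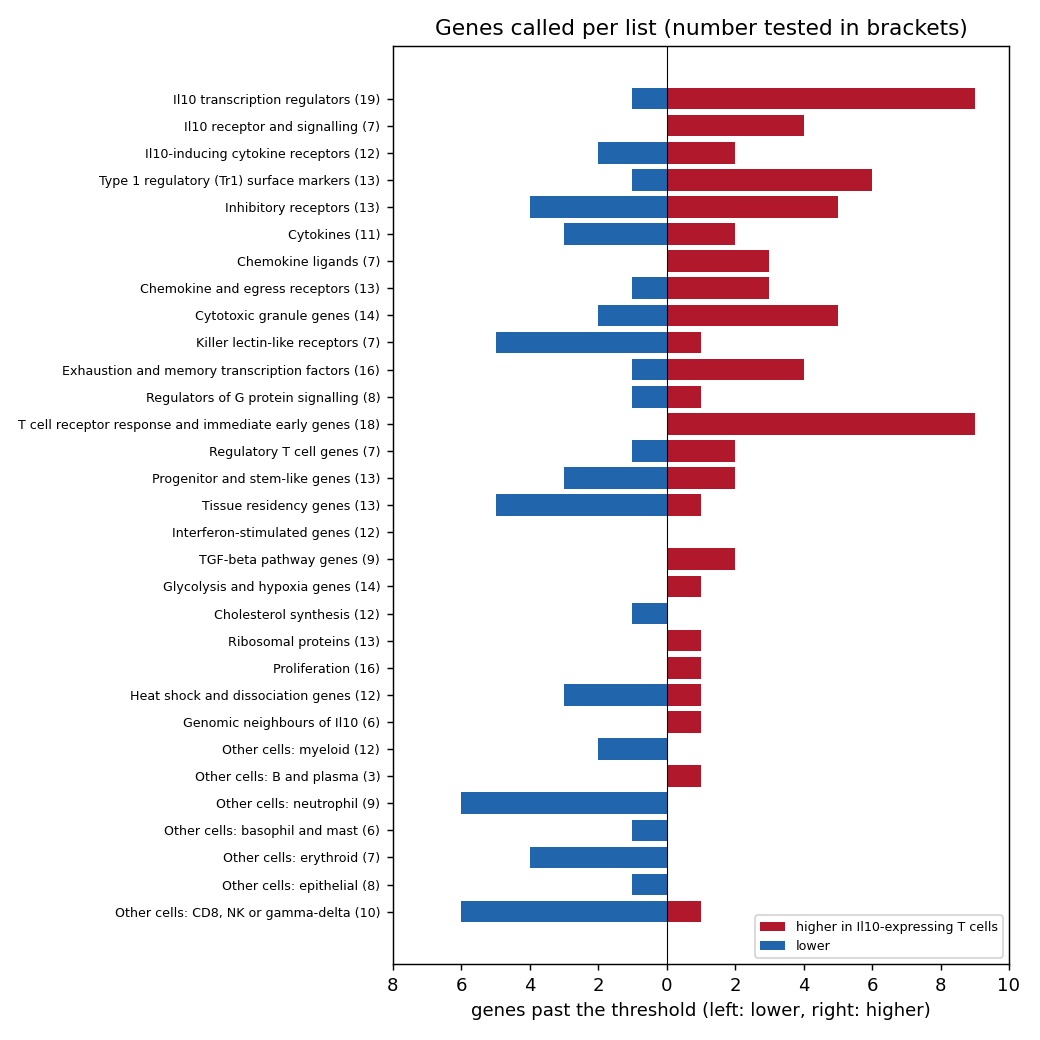
Number of genes per list called lower (blue, to the left) or higher (red, to the right) in Il10-expressing T cells against depth-matched cells, with the number tested in brackets. The regulators of Il10 and the T cell receptor response each have 9 genes higher, and the killer lectin-like receptor and residency lists each have 5 lower.

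The list counts moved with the cells used, and so did the number called over all genes tested. That number was 1279 of 11193 without the shared barcodes and 1114 of 11704 without cells rich in genes of other cell types. With DESeq2 it was 255 of 11811, against 543 of 11811 in the main comparison. Without the shared barcodes, 10 regulators of Il10 were higher and 3 lower of 18, 11 receptor response genes higher and 2 lower of 18, 8 Tr1 surface markers higher and 1 lower of 13, 2 residency genes higher and 7 lower of 13, and 1 killer lectin-like receptor higher and 6 lower of 7. Without cells rich in genes of other cell types the same lists had 11 and 2 of 19, 11 and 1, 8 and 1, 2 and 7, and 1 and 6. With DESeq2 they had 6 and 0 of 19, 7 and 0, 4 and 1, 1 and 3, and 1 and 4.

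Other lists moved too when the shared barcodes were left out. Chemokine and exit receptors had 3 higher and 5 lower of 13, progenitor genes 2 and 6 of 13, exhaustion and memory factors 7 and 3 of 16, granule genes 5 and 4 of 14, inhibitory receptors 7 and 4 of 13, cytokines 3 and 4 of 11, chemokine ligands 3 and 1 of 6, regulatory T cell genes 3 and 2 of 7, and heat shock genes 4 and 4 of 12. Without cells rich in genes of other cell types the same lists had 3 and 3, 2 and 4, 7 and 1, 5 and 3, 6 and 4, 3 and 4, 3 and 1, 3 and 1, and 3 and 4. With DESeq2 they had 2 and 1, 1 and 1, 3 and 1, 4 and 2, 2 and 3, 2 and 3, 3 and 0, 1 and 0, and 1 and 3. The Il10 receptor and signalling list had 4 and 0 of 7 without the shared barcodes and 6 and 0 without the rich cells, and the receptors for Il10-inducing cytokines 2 and 2 and 3 and 2 of 12. With DESeq2 the Il10 receptor and signalling list had 2 and 0 of 7, and the receptors for Il10-inducing cytokines 1 and 0 of 12.

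Markers of other cells moved as well, and their part in the results above was not tested beyond the values given here. Summed neutrophil genes stood at 1171 and 4830 CPM in members and 5945 and 9316 in comparison cells, erythroid genes at 12.7 and 32.9 CPM against 554 and 576, and myeloid genes at 230 and 504 CPM against 788 and 909. Basophil and mast cell genes stood at 23.1 and 126 CPM against 166 and 187, and summed B and plasma cell genes were higher in members, at 47.2 and 53.7 CPM against 25.2 and 26.5. Epithelial genes went opposite ways in the 2 libraries, at 43.8 CPM in members against 313 in replicate 1 and at 1072 against 364 in replicate 2, and without the cells rich in such genes at 43.6 against 321 and 416 against 372. Of these lists, 6 of 9 neutrophil, 4 of 7 erythroid and 2 of 12 myeloid genes were called lower in members and none higher, S100a9 (-1.61 ± 0.28) and Hba-a1 (-5.23 ± 0.15) among them. After cells rich in such genes were left out, the neutrophil sum was 108 and 317 CPM in members and 196 and 317 in comparison cells, and the erythroid sum 12.7 and 33.5 against 34.0 and 71.0. Il21 then differed by 2.26, Maf by 1.42, Prdm1 by 0.92 and Itgae by -0.75. Defa35, a Paneth cell gene at 182 CPM in the comparison cells of replicate 2 and at 0.907 in replicate 1, fell by 6.35 and had a difference of 0.39 without the shared barcodes. Among B and plasma cell genes, Igkc, the kappa light chain, stood at 43.3 and 51.2 CPM against 19.4 and 21.7 (1.25 ± 0.06, edgeR adjusted p = 0.0028), while in members Cd79a was at 0.488 and 0.325 CPM and Ms4a1 at 0.163 and 0.108 CPM. Of markers of CD8, natural killer or gamma-delta T cells, 6 of 10 fell, Cd8a, Tcrg-C4 (-0.72 ± 0.06) and Ncr1 (-4.31 ± 0.67) among them, and Trdc rose (0.42 ± 0.05).

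The members also differed among themselves by the number of Il10 UMIs. With the UMIs of all cells of a class summed, Ccl4 stood at 4552 and 5145 CPM in cells with 1 Il10 UMI and at 24368 and 21318 CPM in cells with 10 or more. Il21 stood at 10.3 and 16.1 CPM with 1 Il10 UMI, at 62.0 and 25.7 with 3 to 4 and at 167 and 163 with 10 or more. Ifng stood at 758 and 824 CPM with 1 UMI, 836 and 774 with 2, 1233 and 1718 with 5 to 9 and 1463 and 2809 with 10 or more. Itgae went the other way, from 185 and 197 CPM with 1 UMI to 50.5 and 64.0 with 10 or more, and Gzma from 15373 and 14560 to 6652 and 4797. Eomes, at 88.6 and 73.6 CPM with 1 UMI, stayed between 75.1 and 127 CPM above that. The classes differ in depth, with medians of 2812 and 4319 UMIs at 1 Il10 UMI and 5254 and 5172 at 10 or more, and the last holds only 35 and 69 cells.

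**Figure D5:**
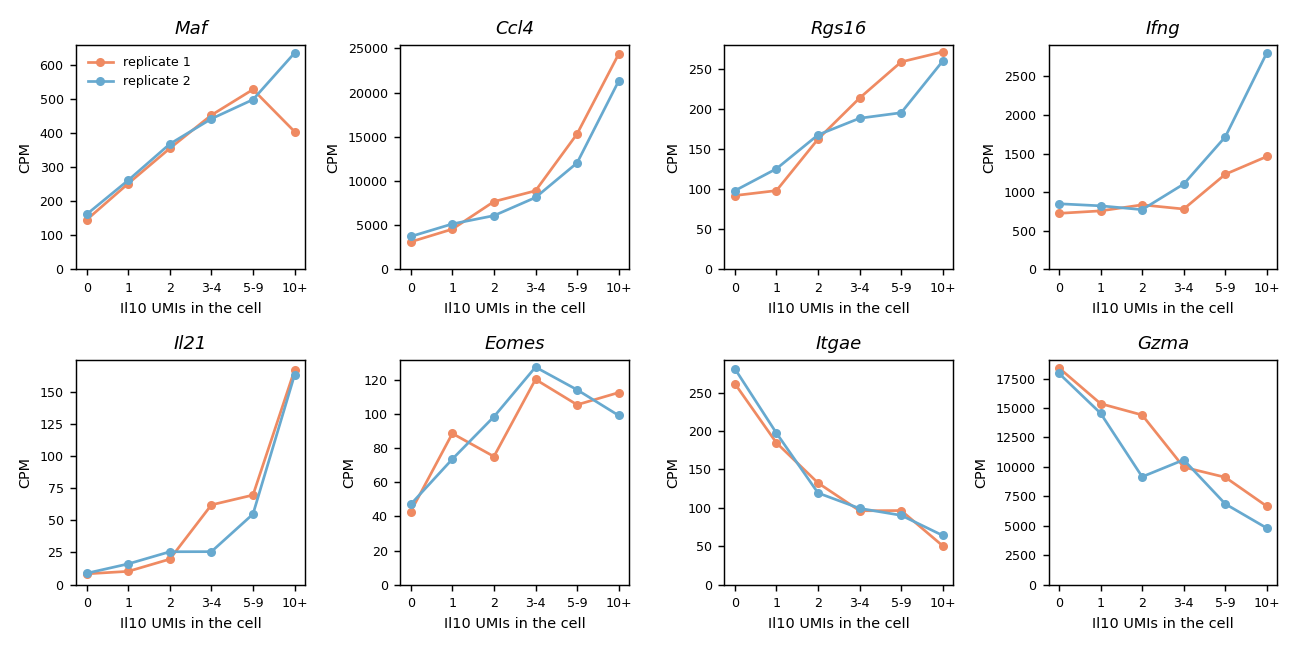
CPM of 8 genes (y axis, linear from 0) in summed T cells by the number of Il10 UMIs in the cell (x axis), with 1 line per library. Ccl4, Ifng and Il21 are highest in cells with 10 or more Il10 UMIs (Il21 at 167 and 163 CPM), and Itgae and Gzma are lowest there.

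To compare these cells at matched depth, 432 and 618 members with 2 or more Il10 UMIs were paired with as many members with 1 UMI in 20 bins of total UMIs. Of 9445 genes tested with the same edgeR test, 167 were higher (1.77%) and 103 lower (1.09%) in cells with more Il10, 2.86% in all. Since both comparisons use the same members, their calls are not independent, and 122 genes were called higher in both (39.5% of the first and 73.1% of the second) and 42 lower in both (17.9% and 40.8%). Il21 stood at 61.5 and 48.0 CPM in cells with 2 or more UMIs and 7.82 and 17.0 CPM in cells with 1 (2.02 ± 0.23, edgeR adjusted p = 9.03e-05). Tnfrsf4 (281 and 250 CPM against 117 and 140; 1.06 ± 0.09, edgeR adjusted p = 6.88e-06), Ccl3 (1997 and 2104 CPM against 779 and 1113; 1.16 ± 0.08), Irf4 (1.00), Fam46c (0.93 ± 0.08), Irf8 (0.89 ± 0.11), Rilpl2 (0.88 ± 0.09), Nfkbid (0.87 ± 0.10) and Agpat4 (0.87 ± 0.12) rose. Maf stood at 433 and 457 CPM against 233 and 254, and Rgs16 at 222 and 185 against 100.5 and 124, as a description.

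Some genes of the first comparison did not pass in the second. Eomes had 101 and 107 CPM against 95.9 and 75.4, Prdm1 a difference of 0.28 ± 0.11 (edgeR adjusted p = 0.262), Ahr of -0.14 ± 0.20 and Il2 of -0.02 ± 0.41; whether they differ between the comparisons was not tested. Others passed only in the second, without a test of that difference: Icos (0.50 ± 0.08, edgeR adjusted p = 0.00199), Pdcd1 (0.51 ± 0.09), Lag3 (0.41 ± 0.08, edgeR adjusted p = 0.0116) and Egr3, whose difference was 1.51. Of 18 T cell receptor response genes 12 rose and none fell, of 13 Tr1 surface markers 8 and none, of 17 regulators of Il10 8 and none, and of 5 chemokine ligands 4 and none. The regulators include Maf and the ligands Ccl4, which earlier results of these data chose. With DESeq2, 5 of 18 receptor response genes, 3 of 13 Tr1 surface markers and 3 of 17 regulators were called higher. Without the shared barcodes 12 of 18, 7 of 12 and 8 of 17 were higher, and without cells rich in genes of other cell types 14 of 18, 9 of 13 with 1 lower, and 10 of 17. Over all genes tested, 36 of 9445 were called higher with DESeq2, 138 of 9049 without the shared barcodes and 277 of 9402 without the rich cells. Ifng rose by 0.67 ± 0.06 and Havcr2 by 0.60 ± 0.12. Itgae fell from 189 and 205 CPM to 101 and 102 (-0.94 ± 0.08, edgeR adjusted p = 5.26e-06), Cd8a from 426 and 409 to 266 and 203 (-0.82 ± 0.08) and Gzma from 16093 and 15170 to 10538 and 8459 (-0.69 ± 0.05). Lag3 lost its call without the shared barcodes (0.45, edgeR adjusted p = 0.082) and, with Icos, Pdcd1, Nr4a2 and Havcr2, without proliferating cells. Among called genes that reached 50 CPM in 1 class and kept 1 order of classes in both libraries, the 10 largest falls of the second comparison were genes found in intestinal epithelium, such as Reg3b at 1012 CPM in cells with 1 Il10 UMI of replicate 2 and 2.06 in replicate 1, so that they rested on replicate 2. The basophil genes Prss34 (-5.21 ± 0.34) and Mcpt8 (-3.99 ± 0.28) were also called lower, Prss34 with 168 CPM in cells with 1 Il10 UMI of replicate 2 and 1.65 in replicate 1, where it did not fall (0.04). All 6 tested neutrophil genes were called higher in cells with more Il10, but each was higher in replicate 2 alone and lower in replicate 1. Camp stood at 6.65 CPM against 8.65 in replicate 1 and at 533 against 209 in replicate 2, and S100a8 at 25.4 against 32.5 and at 2066 against 1092. Without the shared barcodes none of these neutrophil genes and none of 4 tested epithelial marker genes was called, and without cells rich in genes of other cell types 0 of 6 neutrophil genes were called and 4 of 5 epithelial marker genes were lower in cells with more Il10.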

How the data were processed

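The 2 expression libraries of pooled sorted T cells, 1 per replicate, were used. Per the submitters' processing notes, the authors used Cell Ranger 3.1.0 and mm10. The authors deposited whole-number UMI counts of every gene in every barcode, with no normalization. The hashtag libraries, whose deposited feature lists hold genes only, were not used, so tissue was not analysed here. No column of a further sample was found.

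The libraries held 89427990 and 108082997 UMIs, of which kept cells held 71504017 and 79345397. Scrublet (scanpy 1.11.5) marked 0 doublets in either library, so its calls were of no use, and 1 alternative instead dropped the top 8% of cells by doublet score. UMI counts were summed per library and class and tested with edgeR 4.0.16 (R 4.3.3; glmQLFTest, TMM, filterByExpr, library as block, 1 residual degree of freedom). Both classes came from the same library, which is where the pairing comes from; the deviations of members and comparison cells from their class means correlated at 0.152 over 11811 genes, counted in log2 CPM with a pseudocount of 1. DESeq2 1.42.0 was an alternative. Standard errors are the log2 difference over the root of the F statistic. Thinning used seed 20. Il10 molecules in free RNA were counted in barcodes under 100 UMIs. Positions came from GENCODE for 118 of 118 genes looked up.

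The members, the gene lists and the tests were chosen with earlier results of these data known. The text names genes from a 40-gene panel, the up to 4 called genes of largest change in each pathway list, and the 15 largest rises and 10 largest falls among called genes that reached 50 CPM in the higher class and had 1 order of classes in both libraries; for the comparison by number of Il10 UMIs, the panel and the 10 largest changes each way. Other list members, such as Igkc and the B cell genes, were picked for naming with their values in view. On simulated counts with 11950 genes, the test of members found 89 of 96 genes changed by a log2 of 1 and 63 of 101 changed by 0.5, with 9 false calls. For the comparison by number of Il10 UMIs (9614 genes) it found 77 of 90 and 38 of 103, with 2 false calls. The simulation gave every gene the same fixed dispersion and drew all sums independently. Its counts are therefore no error rate for the real data, where the calls moved with the cells drawn. Some members of the lists are counted but their own values are not reported here.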

Additional observations from a re-analysis of the deposited data

How the results depend on the processing

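The number of genes called moved more than their direction. For members against cells without Il10 UMIs (543 genes), it was 1921 with members of 2 or more Il10 UMIs, 255 with DESeq2, 931 without depth matching, 1033 without the low-count filter, 864 in a second random draw, 1215 without proliferating cells, 1279 without shared barcodes and 1114 without cells rich in genes of another cell type. RLE size factors, the same limit in both classes, thinning before classing, and leaving out high doublet scores or other cell types kept it between 473 and 643. The setting without other cell types left out cells with UMIs of 2 or more genes of a neutrophil, myeloid, B cell, basophil, erythroid or epithelial list. In replicate 1 these were 18.6% of members and 17.8% of undetected cells, and in replicate 2 54.7% and 50.6%. This left 1016 and 642 members. Without the low-count filter 46.3% of calls were higher, against 56.9%. For 2 or more against 1 Il10 UMI (270 genes), it was 49 with DESeq2, 450 in a second draw, 480 without high doublet scores, 98 without other cell types, 95 without proliferating cells and 437 without cells rich in genes of another cell type. Without the low-count filter it was 0 by edgeR, with 1172 genes at an unadjusted p under 0.05. The settings on shared barcodes and rich cells were chosen after seeing the data. The cause of these moves was not tested.

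Without the library as replicate block, 59 genes were called for members and 12 by number of Il10 UMIs, all 59 and all 12 also called with it, and of 82 named genes called for members 57 lost the call. With DESeq2, 24 of the 82 lost it. Without other cell types 11 lost it, when thinned before classing 10 and without high doublet scores 8. Without depth matching 6 lost it, without proliferating cells 6, with the same limit in both classes 5 and without rich cells 3. Of 36 named genes called by number of Il10 UMIs, 27 lost the call without the block and 17 with DESeq2. All 36 lost it without the low-count filter, 8 without other cell types, 8 without proliferating cells and 7 without shared barcodes.

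Of the 82 named genes called, some reversed. Without other cell types Hba-a1 had a difference of 0.36, Hba-a2 1.02, Lyz2 0.44, Ngp 0.11, S100a9 0.13 and Tyrobp 0.084, and without shared barcodes Defa35 had 0.39. The setting without other cell types left out cells by lists that hold Hba-a1, Hba-a2, Lyz2, Ngp and S100a9, so it is no independent check of them. No other of the 82 reversed under a setting that tested it. Without thinning, the share of cells with a UMI, members minus undetected, was 6.03 percentage points for Bhlhe40, 2.45 for Cd4 and 1.09 for Itga2, and for Itga2 0.068 when thinned to 1000 UMIs, each below 0 at 1500. The order also changed for Icos (37.7% of members and 32.4% of comparison cells unthinned, 17.5% and 19.1% at 1500), Il27ra (43.2% and 36.5%, 17.8% and 18.0%) and Cd3g (98.9% and 98.2%, 93.2% and 94.7%). The share of members averaged 4.39% at 1500 UMIs, 3.38% at 1000 and 3.23% with 2 or more Il10 UMIs required, and ranged from 6.58 to 8.93% with either replicate left out. Leaving out a replicate gives no count of genes, as no residual degree of freedom is left. At this depth most genes are missed in most cells, so a missing UMI says little.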

Other observations

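The share of Cd3-detected cells with an Il10 UMI at 1500 UMIs was 17.2% ± 4.76 (SD, n = 2) in cells with an Il21 UMI (24 of 173 and 41 of 199 cells) and 4.25% ± 0.43 in cells without. In cells with an Ifng UMI it was 5.99% and without 3.04%, in cells with a Cd8a UMI 2.11% and without 5.46%, and in cells with a Lag3 UMI 5.83% and without 4.02% (means of 2 libraries, the same order in both). These shares were not compared by a test.

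Of 8 regulators of G protein signalling, genes that shorten receptor signals, 1 was called lower in members. Rgs16, which earlier results of these data chose as a marker, is given above as a description only. Rgs10 fell from 103 and 107 CPM in comparison cells to 72.9 and 71.6 in members (-0.49 ± 0.06, edgeR adjusted p = 0.0168) and Rgs1, which is abundant in tissue T cells, stood at 1018 and 1132 CPM in members against 869 and 1091 and did not pass (0.19 ± 0.05, edgeR adjusted p = 0.101).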
